A study of Mus musculus with 18 samples.

Results

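The nuclear genes of the mitochondrial respiratory chain were examined in mouse embryonic stem cells (ESCs) and in the epiblast-like cells (EpiLCs) derived from them, after exposure to Δ9-tetrahydrocannabinol (Δ9-THC) or to its vehicle. The members were the genes whose mouse symbol starts with Ndufa, Ndufb, Ndufc, Ndufs, Ndufv, Uqcr, Cox4, Cox5, Cox6, Cox7, Cox8 or Atp5, together with Sdha, Sdhb, Sdhc and Sdhd, without the Ndufaf assembly factors. They numbered 82 of the 13104 genes listed for ESCs, and the same 82 of the 13717 genes listed for EpiLCs. Complex I held 39 of them, complex II 4, complex III 8, complex IV 14 and complex V 17. Each was counted in a complex by its symbol alone, which put Ndufa4 and Ndufa4l2 in complex I, and the place of the protein was not checked. In the annotation, 99 genes met the rule on symbols, and the other 17 were listed in neither cell type. Of these 17, 12 are processed pseudogenes, and the coding genes include Cox4i2, Cox6a2, Cox8b and Cox8c, which encode isoforms of restricted tissue distribution.

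Complexes I to IV of the inner mitochondrial membrane pass electrons from NADH and succinate to oxygen. Complexes I, III and IV pump protons as they do so, and complex V, the ATP synthase, uses the return of these protons to make ATP. Most subunits are encoded in the nucleus and imported, while a few central subunits of complexes I, III, IV and V are encoded by the mitochondrial genome. Complex II has no mitochondrially encoded subunit, and it is also the succinate dehydrogenase of the citric acid cycle. Naive ESCs are known to use both glycolysis and oxidative phosphorylation, and the step to a primed, epiblast-like state is known for a shift towards glycolysis.

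Poly(A) RNA was sequenced from 4 groups of 3 biological replicates. ESCs were kept in the naive state with the 2 inhibitors of the 2i medium and LIF, and EpiLCs were induced from them with activin A, basic fibroblast growth factor and serum replacement. Of the 6 cultures of each kind of cell, 3 were exposed to 100 nM Δ9-THC and 3 to the vehicle (labelled mock-treated), and the exposed EpiLCs came from ESCs that had been exposed already. All groups carried the same pair of fluorescent reporters, of Blimp1 and Stella, and the study gives its data as those of female ESCs, beside a male clone described in its methods. The adjusted counts summed to between 23427551 and 32096698 per library. The unit of level is CPM, with each library brought to a common size by TMM factors, and a log2 fold change is that of edgeR's quasi-likelihood fit, Δ9-THC over vehicle, with its standard error (SE). A gene was called at a Benjamini-Hochberg adjusted p of at most 0.05 over all genes of the fit.

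The markers given here matched the labels of the libraries. Naive markers such as Esrrb (887 CPM in vehicle ESCs and 28.1 in vehicle EpiLCs) and Klf4 (333 and 4.2) were high in ESCs, and Dnmt3b (76.9 and 932) and Otx2 (4.9 and 68) were high in EpiLCs. Gata6, Sox17, Sox7, Cdx2, Elf5 and Mesp1, defining markers of endoderm, trophoblast and mesoderm, were listed in neither cell type. The markers of other cells that were looked up also included Gata4, T, Sox1, Pax6, Col1a1, Col1a2 and Thy1, whose levels are not given here. One feature of the counts touched every result below. A vehicle and a Δ9-THC library of the same number deviated from their group means in opposite directions, with correlations across genes of -0.99, -0.98 and -0.98 in ESCs and -0.98, -0.98 and -0.99 in EpiLCs, so that the 6 libraries of a cell type did not vary independently, as the tests assume. The counts were adjusted for batch by the authors before deposit, and the part of that adjustment in this pattern was not tested. The feature ENSMUSG00000119584, which the annotation used here does not name, took 0.611%, 0.477% and 0.639% of the counts in vehicle ESCs and 2.60%, 3.19% and 2.46% in exposed ESCs, without overlap. In EpiLCs it took 0.779%, 2.19% and 3.88% with the vehicle and 3.97%, 1.79% and 0.418% with Δ9-THC, with overlap, and its part in the results below was not tested.

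The promoters of the members carried short motifs of factors that are known to regulate respiratory genes. RefSeq promoters (GRCm38.p6, from 250 bases before the start of transcription to 50 after it) were matched to 68 of the 82 members. Each was searched on both strands for GCGCA followed by any base and GCGC, the site of nuclear respiratory factor 1 (NRF1), for CCGGAAGT, the site of ETS factors such as GABP, and for AANATGGC, the site of YY1. The NRF1 letters were present in 16 of the 68 promoters (23.5%), against 4.78% of all 27025 promoters and 10.3% of the 10487 promoters of genes in the count tables. The YY1 letters were present in 15 (22.1%), against 6.23% and 8.60%, and the ETS letters in 5 (7.35%), against 4% and 8.24%. At least 1 of these motifs was found in 34 of the 68 (50%), against 13.7% of all promoters and 24.4% of those of genes in the count tables. Of the 15 promoters with the YY1 letters, 11 belonged to complex I, and 10 held a copy after the start of transcription. A match of letters describes the sequence and is no measurement of binding.

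The 150 bases before the start are shown for 6 members, 1 or 2 of each complex with a motif there except complex IV, with the motifs in capitals and the 5′ to 3′ direction of the gene. Sdha, the flavoprotein subunit of complex II, held 3 NRF1 motifs in this stretch, and Ndufb4, an accessory subunit of complex I, held 2. Atp5g2, 1 of 3 genes for the c ring of ATP synthase, had the smallest adjusted p of any member in EpiLCs. Ndufb5 (accessory subunit of complex I) is shown for its YY1 motif, Uqcrh (hinge protein of complex III) for its ETS motif on the reverse strand, and Atp5h (subunit d of the peripheral stalk of ATP synthase) for an NRF1 and an ETS motif together.
Ndufb4 promoter (chr16:37654369-37654518, minus strand, GRCm38.p6): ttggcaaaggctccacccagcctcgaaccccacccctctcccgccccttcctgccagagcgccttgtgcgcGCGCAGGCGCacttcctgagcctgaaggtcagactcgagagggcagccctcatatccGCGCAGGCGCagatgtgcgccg
Ndufb5 promoter (chr3:32736913-32737062, plus strand, GRCm38.p6): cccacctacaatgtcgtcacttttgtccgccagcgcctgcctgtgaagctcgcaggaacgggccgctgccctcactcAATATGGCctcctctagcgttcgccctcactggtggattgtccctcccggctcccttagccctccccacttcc
Sdha promoter (chr13:74350241-74350390, minus strand, GRCm38.p6): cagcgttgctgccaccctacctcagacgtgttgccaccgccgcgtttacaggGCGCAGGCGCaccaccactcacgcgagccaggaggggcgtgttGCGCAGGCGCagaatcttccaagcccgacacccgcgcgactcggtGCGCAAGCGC
Uqcrh promoter (chr4:116075071-116075220, minus strand, GRCm38.p6): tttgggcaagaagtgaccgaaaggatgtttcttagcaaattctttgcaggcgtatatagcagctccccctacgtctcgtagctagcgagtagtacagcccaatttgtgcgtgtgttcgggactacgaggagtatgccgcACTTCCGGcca
Atp5g2 promoter (chr15:102671048-102671197, minus strand, GRCm38.p6): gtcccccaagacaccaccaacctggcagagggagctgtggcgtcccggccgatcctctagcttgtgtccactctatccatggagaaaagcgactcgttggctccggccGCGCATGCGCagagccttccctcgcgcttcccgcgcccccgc
Atp5h promoter (chr11:115419920-115420069, minus strand, GRCm38.p6): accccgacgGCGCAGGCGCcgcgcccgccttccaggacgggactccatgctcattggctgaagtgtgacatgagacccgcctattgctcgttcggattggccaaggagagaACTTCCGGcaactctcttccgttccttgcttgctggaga

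The members differed widely in level within each cell type. Per kilobase of transcript, the highest mean levels in vehicle ESCs were those of Atp5b (1213 CPM per kilobase), the catalytic β subunit of ATP synthase, Atp5a1 (608), its α subunit, Atp5g3 (437) and Atp5c1 (335), a c-ring gene and the γ subunit, and Cox7c (332), a small subunit of complex IV. In vehicle EpiLCs, Atp5b (973 CPM per kilobase), Cox7c (593), Atp5a1 (547), Atp5g3 (519) and Cox6c (504) led. The lowest were Cox7b2, a testis isoform of complex IV, with 2.54 CPM per kilobase in ESCs and 3.78 in EpiLCs, and Ndufb2, an accessory subunit of complex I, with 3.66 and 7.75. Only uniquely mapped reads were counted, without strand, so levels of genes with near-identical processed pseudogenes or overlapping genes are uncertain, and that of Atp5o, which has a second identifier in the annotation, is among them. Summed over the 82 members, the level was 1.17% of the scaled counts in vehicle ESCs and 1.18% in vehicle EpiLCs.

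Vehicle EpiLCs and vehicle ESCs are separate libraries whose counts were adjusted in separate tables, so their levels were set side by side on a scale common to all 12 libraries, as a description with no test. On this scale 55 members were higher in EpiLCs and 27 lower, with a median log2 difference of 0.21 against 0.0023 over the 12410 genes in both tables. The 3 EpiLC libraries lay above the 3 ESC libraries for 31 members (37.1% of all genes were separate in this direction) and below them for 12 (38.3% of all genes). The median of complex II went the other way from those of the other complexes. All 4 members of complex II were lower in EpiLCs, with a median of -0.26, while the medians were 0.27 for complex I, 0.20 for complex III, 0.10 for complex IV and 0.22 for complex V. Being lower was not particular to complex II, as 10 members of complex I, 3 of III, 6 of IV and 4 of V were lower too. The transcripts of complex II are 1142 to 3171 bases long, and the part of length in its median was not tested.

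The largest decreases from ESCs to EpiLCs were in complex IV. Cox7a1, the isoform of heart and skeletal muscle, had a mean of 11.6 CPM in vehicle ESCs and 4.61 in vehicle EpiLCs, a log2 difference of -1.24. Cox5a, a subunit on the matrix side of complex IV, had 81.0 and 41.3 (-0.96). Sdhb, the iron-sulfur subunit of complex II (114 and 84.8 CPM, -0.43), Uqcrc2, a core protein of complex III (208 and 155, -0.43), and Ndufb6, an accessory subunit of complex I (29.6 and 23.1, -0.35), followed. The largest increase was that of Ndufa4l2, a paralogue of Ndufa4 induced by hypoxia, which had 3.86 CPM in ESCs and 20.1 in EpiLCs (log2 difference 2.24). Atp5s, a factor associated with ATP synthase (6.79 and 15.8, 1.16), Ndufab1, the mitochondrial acyl carrier protein (22.8 and 44.1, 0.94), Ndufb1-ps (33.5 and 64.0, 0.93), which the annotation gives as non-coding, and Atp5e, the ε subunit (56.3 and 106, 0.91), came next. Cox7c (180 and 322, 0.84), which was chosen after its values were seen, was also among the higher ones. So was Cox6c (162 and 255, 0.65), named here as the member of complex IV with the largest increase in exposed ESCs. Across members the difference had a Spearman rho of -0.36 with transcript length, and across all genes one of -0.24, which describes genes and not replicates.

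**Figure D1:**
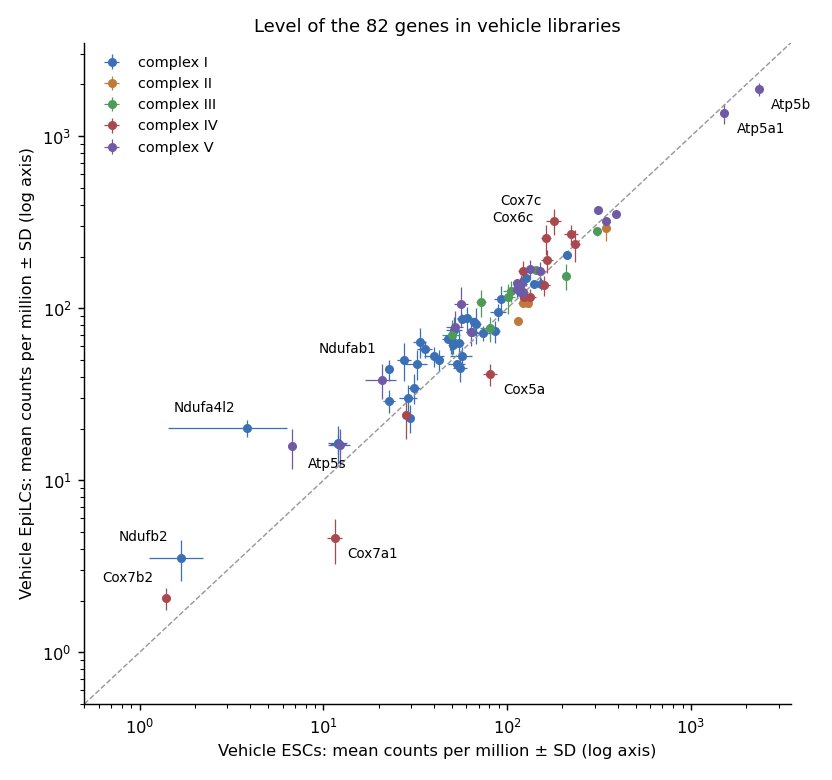
Mean level (CPM) of each of the 82 members in vehicle ESCs (x axis) and vehicle EpiLCs (y axis), on log axes, with colours for complexes I to V and error bars of 1 SD over 3 libraries. Points above the diagonal are higher in EpiLCs, among them Ndufa4l2 (3.86 and 20.1 CPM on the common scale), and points below it are lower, among them Cox7a1 (11.6 and 4.61) and Cox5a (81.0 and 41.3).

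In ESCs, 2 of the 82 members differed between exposure and vehicle. Ndufb6, an accessory subunit of the membrane arm of complex I, and Cox6b2, the testis isoform of a subunit of complex IV, fell, and no member rose. Over all 13104 genes, 3.55% were called lower and 3.37% higher, so the share of members called was not above that of all genes. The other members were spread around 0. A log2 fold change below 0 was seen in 46 of the 82 (48.9% of all genes), with a median of -0.012 against 0.0041 over all genes. The medians were -0.032 for complex I, -0.0076 for complex II, 0.0027 for complex III, -0.013 for complex IV and 0.057 for complex V. At an unadjusted p under 0.05, 11 members were lower (13.8% of all genes) and 2 higher (14.9% of all genes). DESeq2 called 3 members lower (3.02% of the genes it tested) and 0 higher. In bulk libraries such as these, less RNA of a gene per cell and fewer cells that express it cannot be told apart.

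Ndufb6 (ENSMUSG00000071014, GRCm38 chromosome 4, 40270591 to 40279421) had 28.4, 30.6 and 29.2 CPM in the vehicle ESC libraries 1 to 3 and 24.8, 23.1 and 24.4 in the Δ9-THC libraries. All exposed libraries lay below all vehicle libraries, and the log2 fold change was -0.29 (SE 0.047, adjusted p = 0.0304). Cox6b2 (ENSMUSG00000051811, chromosome 7, 4751792 to 4753094) had 28.0, 28.2 and 28.3 CPM in the vehicle libraries and 23.4, 23.3 and 23.3 in the exposed ones. The replicates of each group lay close together and the groups far apart by comparison, and the log2 fold change was -0.27 (SE 0.033, adjusted p = 0.0278). Neither call was kept when any 1 of the 6 libraries was left out: the log2 fold change then ranged from -0.31 to -0.26 for Ndufb6 and from -0.27 to -0.27 for Cox6b2, with adjusted p between 0.0721 and 0.134 for both. With offsets for GC content and transcript length, the log2 fold change was -0.36 for Ndufb6 (adjusted p = 0.0651) and -0.26 for Cox6b2 (adjusted p = 0.0822). Over all 13104 genes, 0 were called lower in any of these fits, against 465 in the fit of all 6 libraries. Across all genes, the ESC log2 fold changes had a Spearman rho of -0.54 with GC content, which describes genes and not replicates.

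Among the subunits of the catalytic core of complex I in ESCs, values differed little between the groups. Ndufs1, the largest of them, had 122, 124 and 124 CPM in the vehicle libraries and 133, 131 and 132 in the exposed ones, without overlap (log2 fold change 0.10, SE 0.024, adjusted p = 0.0543). Ndufv1, which binds NADH, had 136, 138 and 142 against 131, 129 and 126 (-0.11, SE 0.031, adjusted p = 0.0833), and Ndufs7, which carries the last iron-sulfur cluster, had 41.2, 43.1 and 43.2 against 40.3, 38.6 and 38.7 (-0.12, SE 0.037, adjusted p = 0.0962). These 3 subunits of the same arm thus did not share a direction, and none passed the threshold. Ndufs3 (0.014), Ndufs8 (-0.022) and Ndufv2 (0.072) overlapped between the groups.

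The remaining members whose ESC groups did not overlap were also below 0.15 in absolute log2 fold change, except for Cox7b2. Groups were separate for 7 members in the lower direction (15.9% of all genes) and for 4 in the higher direction (16.7% of all genes). Uqcrc1, a core protein of complex III, had 303, 302 and 318 CPM in the vehicle libraries and 291, 292 and 278 in the exposed ones (-0.099, adjusted p = 0.115). Atp5g2 had 110, 110 and 117 CPM against 107, 106 and 100 (-0.10, adjusted p = 0.149). Cox7b2 was at a low level, with 1.37, 1.31 and 1.45 CPM against 0.964, 1.04 and 0.922 (-0.49, SE 0.11, adjusted p = 0.102). The separate members in the higher direction besides Ndufs1 were Ndufab1 (log2 fold change 0.14), Atp5s (0.14) and Ndufc2 (0.066). With offsets for GC content and transcript length, Uqcrc1 (0.0087), Atp5s (-0.046) and Ndufc2 (-0.0030) had the opposite sign. Ndufa4l2 had the largest increase of any member, 0.54, with an SE of 0.52. It was measured at 6.39, 1.57 and 3.57 CPM in the vehicle libraries and 2.76, 8.03 and 6.04 in the exposed ones, so its replicates differed more than its groups.

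Other named subunits in ESCs overlapped between the groups. In complex II the log2 fold changes were 0.026 for Sdha, -0.041 for Sdhb, -0.047 for Sdhc and 0.13 for Sdhd, the last 3 being the iron-sulfur subunit and both membrane anchors. In complex III they were 0.056 for Uqcrc2, 0.023 for Uqcrfs1, the Rieske iron-sulfur protein, and 0.20 for Uqcrh. In complex IV, Cox4i1 (-0.0015), Cox5a (-0.18), Cox5b (-0.048), Cox6c (0.13), Cox7a1 (-0.013) and Cox7a2l (0.0073), a factor of respiratory supercomplexes, had adjusted p-values from 0.211 to 0.993. Cox6a1, chosen after its values were seen, had 121, 140 and 139 CPM against 122, 106 and 107 (-0.25, adjusted p = 0.0847), and DESeq2 called it beside Ndufb6 and Cox6b2. In complex V, Atp5a1 (-0.027), Atp5b (-0.062), Atp5c1 (0.029), Atp5d (-0.087), Atp5e (0.12), Atp5g1 (-0.0049), Atp5g3 (0.070) and Atp5l (0.20), subunit g of the membrane part, had adjusted p-values from 0.244 to 0.974.

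**Figure D2:**
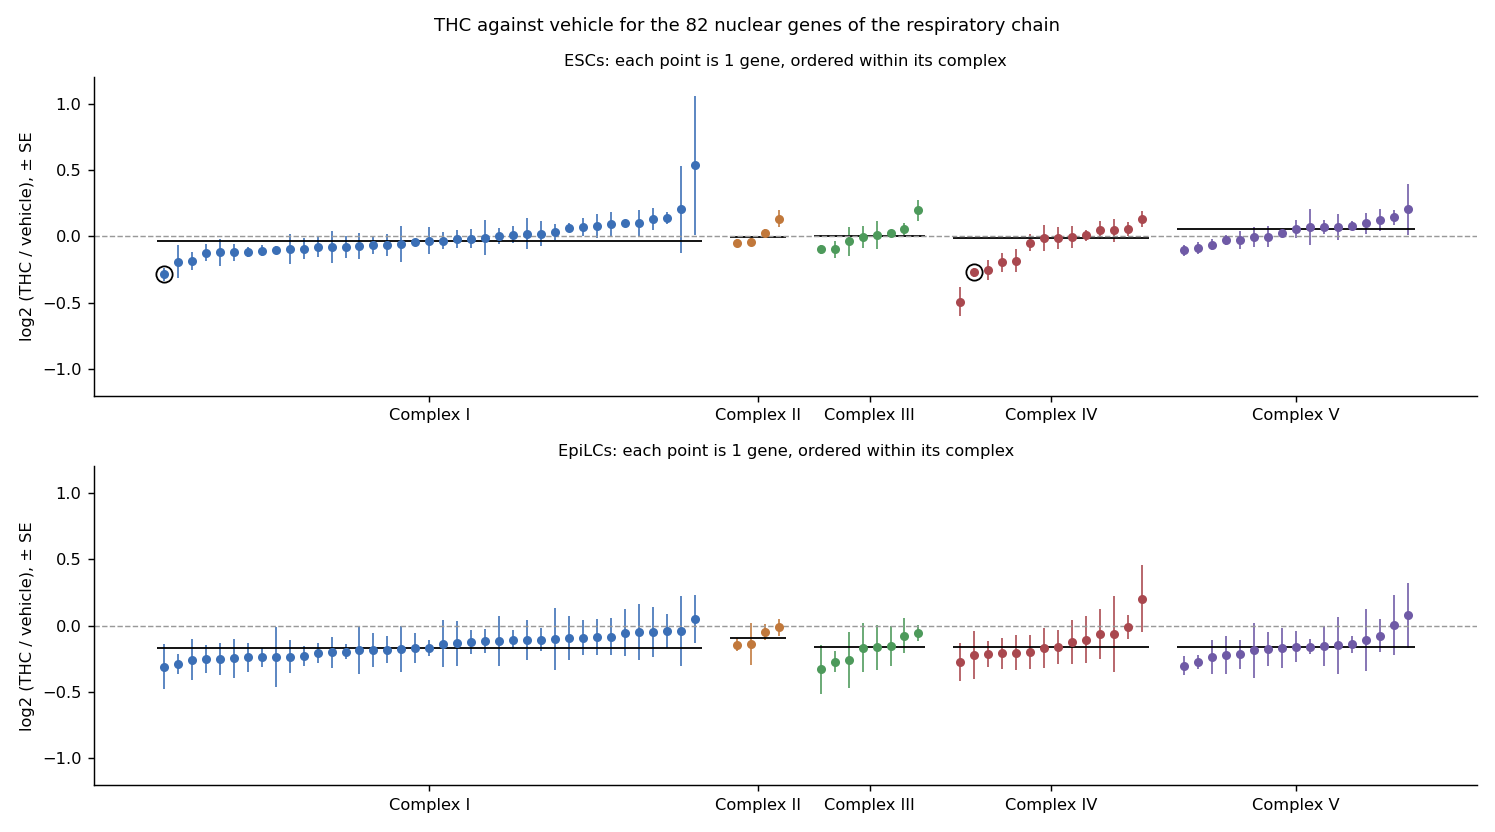
Log2 fold change (Δ9-THC over vehicle) of each of the 82 members, grouped by complex, in ESCs and in EpiLCs, with bars of 1 SE and a black line at the median of each complex. Circled points have an adjusted p of at most 0.05, which are Ndufb6 and Cox6b2 in ESCs and no member in EpiLCs. The medians lie between -0.032 and 0.057 in ESCs and between -0.17 and -0.093 in EpiLCs.

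In EpiLCs, no member passed the threshold, but nearly all of them lay slightly lower in the exposed group. A log2 fold change below 0 was seen in 78 of the 82 members (49.3% of all genes), and the median was -0.16 against 0.0030 over all genes. The exceptions were Ndufb1-ps (0.053), Cox6b2 (0.20), Atp5o (0.0069), which encodes the OSCP subunit of the ATP synthase stalk, and Atp5s (0.078). The medians were -0.17 for complex I, -0.093 for complex II, -0.16 for complex III, -0.16 for complex IV and -0.16 for complex V. By edgeR, 0 of the 13717 genes were called in either direction (0%), and the smallest adjusted p was 0.155 among the members and 0.144 among all genes. DESeq2 called 0 members too, and 0.224% of the genes it tested lower. At an unadjusted p under 0.05, 11 members were lower (6.8% of all genes) and 0 higher (8.28% of all genes).

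The direction did not hold in every ratio of same-numbered libraries, which were not taken as pairs. Such libraries deviated from their group means in opposite directions, which widens the spread of their ratios. The ratios therefore describe libraries and are no replicate estimates of the group difference. The median log2 ratio of the members was -0.37 between the libraries numbered 1, 0.26 between those numbered 2 and -0.28 between those numbered 3, and 79, 21 and 74 members respectively had a ratio below 0. With both libraries numbered 1 left out, 51 members were below 0 (median -0.043), with both numbered 2 left out 79 (median -0.35), and with both numbered 3 left out 58 (median -0.096). These alternatives were chosen after the values were seen. In the fit with offsets for GC content and transcript length, 67 members were below 0 and the median was -0.081. A fit of all 12 libraries, which takes its estimate of spread from both cell types, called 6 members lower (1.28% of all genes in that fit), among them Ndufv1, Ndufc2, Uqcrc1, Atp5g2 and Atp5g3.

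For 13 members, all 3 exposed EpiLC libraries lay below all 3 vehicle libraries (10.6% of all genes), and for 0 they lay above (11.2% of all genes). Some of them belonged to the catalytic core of complex I. Ndufv1 had 128, 143 and 140 CPM in the vehicle libraries and 123, 111 and 114 in the exposed ones (log2 fold change -0.24, SE 0.071, adjusted p = 0.218). Ndufs3 had 83.0, 83.2 and 92.9 against 77.1, 77.9 and 69.5 (-0.21, adjusted p = 0.283), and Ndufs8 had 67.8, 63.8 and 66.4 against 56.7, 61.2 and 58.4 (-0.17, adjusted p = 0.268). Ndufs1 (-0.12), Ndufs7 (-0.084) and Ndufv2 (-0.10), of the same core, were below 0 with overlapping groups.

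Of the 32 members counted by symbol in complex I outside its core, 31 were below 0, and the groups of 2 were separate. Ndufc2, a subunit of the membrane arm (ENSMUSG00000030647, chromosome 7, 97400003 to 97407802), had 78.6, 88.2 and 80.4 CPM in the vehicle libraries and 70.5, 62.7 and 69.4 in the exposed ones (-0.29, SE 0.075, adjusted p = 0.202). Ndufb8, another subunit of that arm, had 49.7, 45.9 and 44.8 against 37.3, 41.0 and 41.6 (-0.23, SE 0.072, adjusted p = 0.234). Both were chosen after their values were seen. Ndufb6, called in ESCs, had the largest decrease of complex I in EpiLCs too, -0.31, but its libraries overlapped, at 26.8, 23.2 and 18.7 CPM against 15.4, 18.5 and 21.7 (adjusted p = 0.445). Ndufa4l2 had 20.2, 17.6 and 22.2 CPM against 16.4, 18.9 and 15.1 (-0.25, adjusted p = 0.389).

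In complexes II and III, 1 member each had separate groups in EpiLCs. Sdhb had tightly grouped libraries, 84.6, 83.9 and 84.2 CPM in the vehicle libraries and 75.5, 77.1 and 76.4 in the exposed ones (-0.14, SE 0.049, adjusted p = 0.263). The other 3 subunits of complex II overlapped, with -0.14 for Sdha, -0.046 for Sdhc and -0.011 for Sdhd. Uqcrc1 (ENSMUSG00000025651, chromosome 9, 108936633 to 108949623) had 270, 299 and 269 CPM against 239, 215 and 241 (-0.27, SE 0.077, adjusted p = 0.212). Uqcrc2, the other core protein, had the largest decrease of complex III, -0.33, which rested on the libraries numbered 2. It had 139, 185 and 137 CPM in the vehicle libraries and 136, 93.6 and 138 in the exposed ones (SE 0.18, adjusted p = 0.452). Uqcrfs1 (-0.056) and Uqcrh (-0.075) overlapped.

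In complex IV, the log2 fold change was below 0 for 13 of 14 members in EpiLCs, with wide spread between libraries. Cox7a2, chosen after its values were seen, was the one member with separate groups, at 150, 127 and 130 CPM in the vehicle libraries and 105, 126 and 121 in the exposed ones (-0.21, adjusted p = 0.369). Cox5a had the largest decrease, -0.28, with overlapping libraries at 42.7, 45.9 and 34.4 CPM against 32.5, 29.9 and 39.3 (adjusted p = 0.420). Cox4i1 (-0.16), Cox5b (-0.20), Cox6c (-0.22), Cox7a1 (-0.062), Cox7a2l (-0.0095) and Cox7b2 (-0.11) overlapped as well. Cox6b2, which had fallen in ESCs, was measured at 25.5, 16.7 and 29.7 CPM against 25.6, 35.1 and 21.9 in EpiLCs (0.20, SE 0.25, adjusted p = 0.746), so its replicates differed more than its groups.

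In complex V, 2 of the 3 genes of the c ring, the γ subunit and a stalk subunit had separate groups in EpiLCs. The c ring is the rotor that protons turn, and the γ subunit is its shaft. Atp5g2 (ENSMUSG00000062683, chromosome 15, 102662864 to 102672352) had 144, 140 and 136 CPM in the vehicle libraries and 112, 117 and 119 in the exposed ones (-0.27, SE 0.055, adjusted p = 0.155). Atp5g3 (ENSMUSG00000018770, chromosome 2, 73908447 to 73911326) had 371, 391 and 350 against 299, 286 and 318 (-0.30, SE 0.073, adjusted p = 0.182). Atp5g1, the third c-ring gene, overlapped at 139, 112 and 134 against 105, 130 and 110 (-0.16, adjusted p = 0.562). Atp5c1 had 345, 358 and 344 CPM against 315, 306 and 318 (-0.16, SE 0.056, adjusted p = 0.275), and Atp5f1, subunit b of the stalk and chosen after its values were seen, had 313, 337 and 313 against 297, 277 and 299 (-0.14, adjusted p = 0.369). The catalytic subunits, Atp5a1 and Atp5b, overlapped. Atp5b had 1726, 2048 and 1821 CPM against 1728, 1437 and 1650 (-0.22, adjusted p = 0.400), and Atp5a1 had 1261, 1563 and 1234 against 1247, 962 and 1274 (-0.22, adjusted p = 0.521). Atp5d (-0.18), Atp5e (-0.11) and Atp5l (-0.19) overlapped too.

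The summed level of each complex followed the same course. In ESCs the sums differed by less than the spread between libraries: complex I was at 2362 ± 138 CPM in the vehicle libraries and 2317 ± 132 in the exposed ones (SD, n = 3), complex II at 710 ± 13.8 and 720 ± 11.3, complex III at 1064 ± 53.9 and 1063 ± 51.8, complex IV at 1735 ± 124 and 1705 ± 120, and complex V at 5832 ± 229 and 5752 ± 208. In EpiLCs, complex III had 1143, 1041 and 1091 CPM in the vehicle libraries and 912, 999 and 961 in the exposed ones, and complex V had 5306, 5700 and 5326 against 4852, 4486 and 4855. In both, all exposed libraries lay below all vehicle libraries. With levels taken per kilobase of transcript, complex V stayed separate, but complex III overlapped. Its sums were then 1575, 1245 and 1469 CPM per kilobase in the vehicle libraries and 1146, 1425 and 1242 in the exposed ones. Complex I (2701 ± 230 and 2421 ± 205), complex II (588 ± 35.9 and 549 ± 35.5) and complex IV (2003 ± 288 and 1805 ± 250) overlapped. Together the members made up 1.05% of the scaled counts in exposed EpiLCs, against 1.18% in vehicle EpiLCs. Sums over members were given no test, and that of complex V is mostly Atp5a1 and Atp5b.

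**Figure D3:**
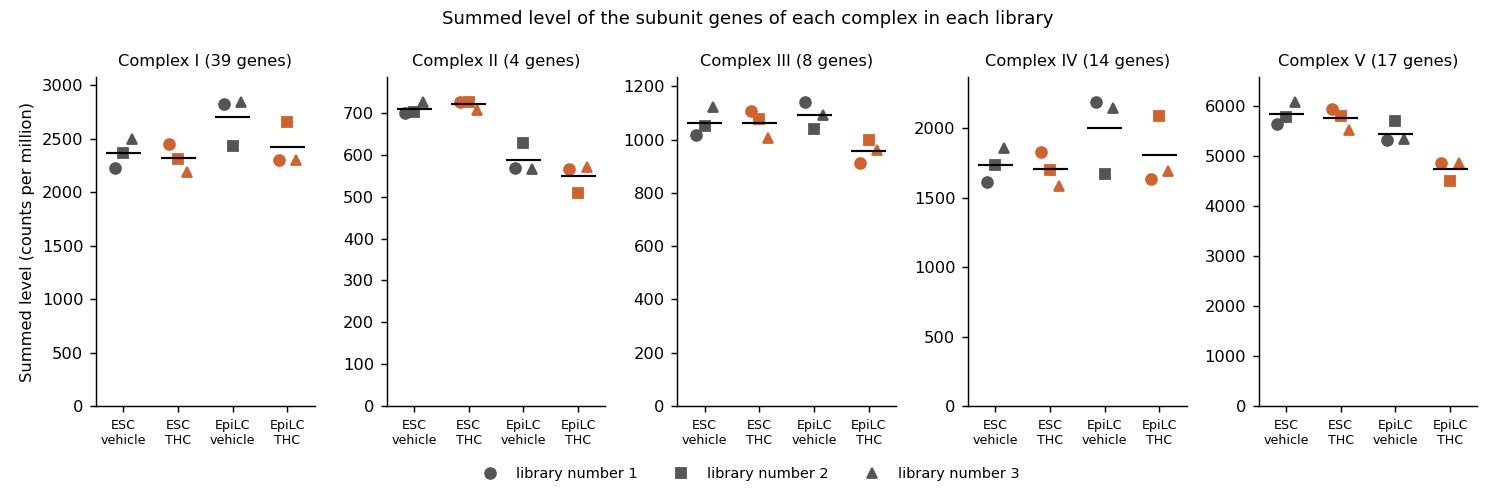
Summed CPM of the members of each complex in every library of ESCs and EpiLCs, with grey markers for vehicle and orange markers for Δ9-THC, a marker shape for each library number and a line at the group mean. In EpiLCs the exposed libraries lie below the vehicle libraries for complex III (912 to 999 against 1041 to 1143) and complex V (4486 to 4855 against 5306 to 5700), and the groups overlap elsewhere.

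Short transcripts made up most of the members, and transcript length went along with the differences between numbered libraries in EpiLCs. The median transcript length was 786 bases for the members and 2773 bases for all genes listed in EpiLCs, and 53 members (64.6%) were under 1000 bases against 9.11% of all genes. For these 53 members, the median log2 ratio was -0.42, 0.32 and -0.34 in the libraries numbered 1, 2 and 3. All 1248 genes under 1000 bases had medians of -0.24, 0.26 and -0.25 in the same libraries, and 833 of them had a log2 fold change below 0, with a median of -0.081. For the 29 members of at least 1000 bases, the medians were smaller, at -0.13, 0.069 and -0.16. Their log2 fold changes were nonetheless below 0 in 28 of 29, with a median of -0.14, while all 12448 genes of that length had a median of 0.011. Some long members had their low ratio between the libraries numbered 2, such as Sdha (0.096, -0.69 and 0.16 for the numbers 1, 2 and 3), Uqcrc2 (-0.040, -0.98 and 0.016), Atp5a1 (-0.016, -0.70 and 0.046) and Ndufa9 (-0.028, -0.75 and 0.038), the last chosen after its values were seen. The part of transcript length in the members' values was not tested beyond the fit with offsets.

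**Figure D4:**
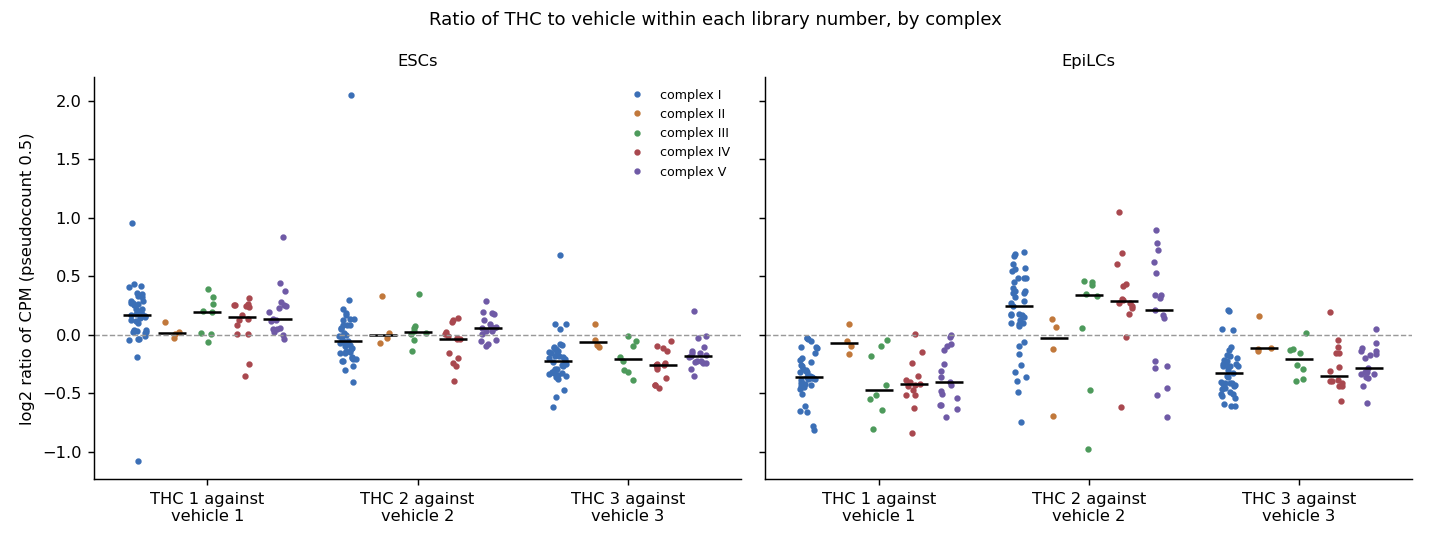
Log2 ratio of the Δ9-THC library to the vehicle library of the same number for every member, by complex, in ESCs and EpiLCs. The number was not taken to pair the libraries. In EpiLCs the medians over the members are -0.37, 0.26 and -0.28 for the libraries numbered 1, 2 and 3, and in ESCs 0.15, -0.0063 and -0.21.

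**Figure D5:**
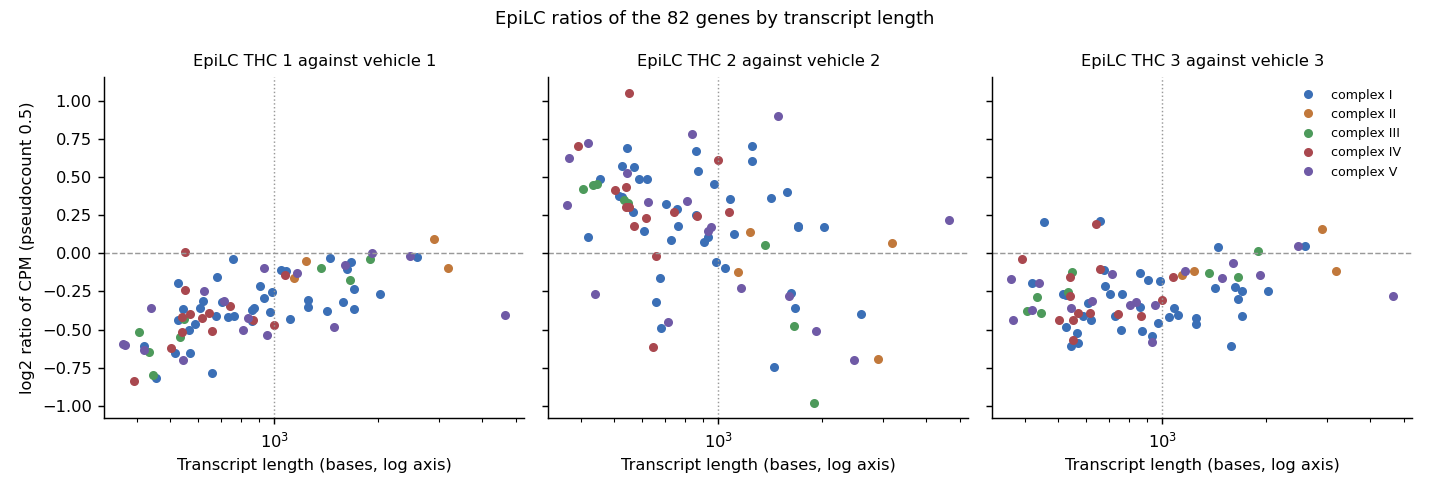
Log2 ratio of the Δ9-THC to the vehicle EpiLC library of the same number (1 panel for each number) against the transcript length of each member in bases, on a log axis, with a dotted line at 1000 bases. The number was not taken to pair the libraries. Left of the line the medians are -0.42, 0.32 and -0.34, and right of it -0.13, 0.069 and -0.16.

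ESCs showed the same kind of split by library number around a median near 0. The median ratio of the members was 0.15, -0.0063 and -0.21 for the libraries numbered 1, 2 and 3, and 11, 42 and 76 of the 82 members had a ratio below 0. With both libraries numbered 1 left out, 65 members were below 0, with a median of -0.12, and 12 were called lower, against 6.32% of all genes in that fit. With both numbered 3 left out, 23 members were below 0, with a median of 0.082, and 0 were called. With both numbered 2 left out, the values were 43 and -0.0027, and 0 were called.

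Whether the log2 fold changes of ESCs and EpiLCs differed was tested as an interaction over the 12410 genes in both tables, where a negative value means a lower log2 fold change in EpiLCs than in ESCs. By edgeR, 0 members were called, against 0.00806% of all genes called lower and 0.0242% called higher. At an unadjusted p under 0.05, 4 members were lower (4.83% of all genes), and DESeq2 called 2 members lower, Atp5g3 and Ndufc2 (0.322% of all genes by DESeq2). The interaction was below 0 for 69 of the 82 members (47.1% of all genes), with a median of -0.14 against 0.014 over all genes. With the GC and length offsets the interaction was below 0 for 47 members, with a median of -0.035. The values were -0.34 for Ndufc2 (SE 0.085, adjusted p = 0.125), -0.35 for Atp5g3 (SE 0.095, adjusted p = 0.138), -0.17 for Atp5c1 (adjusted p = 0.288) and -0.20 for Atp5f1 (adjusted p = 0.277). All 17 members of complex V and all 8 of complex III were below 0, with medians of -0.17 and -0.15. Complexes I, II and IV had medians of -0.13, -0.11 and -0.085, and that of complex IV was 0.055 with the offsets.

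Assembly factors, which build the complexes without staying in them, were called in ESCs for complexes I and IV, and none was called in EpiLCs by edgeR. Of 17 measured assembly factors of complex I, 1 fell (3.55% of all genes) and 2 rose (3.37% of all genes) in ESCs: Ndufaf3 went from 12.6 ± 0.732 to 10.1 ± 0.636 CPM (log2 fold change -0.33, adjusted p = 0.0472), Ndufaf4 from 34.6 ± 1.05 to 40.7 ± 1.38 (0.24, adjusted p = 0.0337) and Tmem126b from 14.4 ± 0.301 to 16.7 ± 0.407 (0.21, adjusted p = 0.0421). Of 18 measured assembly factors of complex IV, 1 rose, Cmc1, which assists the first steps of its assembly (0.37, adjusted p = 0.0357). In ESCs edgeR called none of the 4 factors of complex II, 6 of complex III and 4 of complex V. Nor did it call any of the 6 electron carriers and 13 enzymes of coenzyme Q synthesis. At an unadjusted p under 0.05 these lists, in that order, held 0, 1, 2, 1 and 3 genes, lower or higher. Of all genes, 13.8% were lower and 14.9% higher at that p. Cyc1, the haem-bearing cytochrome c1 of complex III, lies outside the rule on symbols and had separate groups in both cell types, at 164 ± 9.17 against 151 ± 7.98 CPM in ESCs (-0.12, adjusted p = 0.201) and 201 ± 6.08 against 174 ± 4.47 in EpiLCs (-0.21, adjusted p = 0.204).

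Subunits encoded by the mitochondrial genome were described beside the members, with no test between the groups of genes. In ESCs 8 of the 10 measured genes were above 0, with a median of 0.11, and mt-Nd6, a subunit of complex I encoded on the light strand, rose from 301 ± 21.9 to 395 ± 29.0 CPM (0.39, adjusted p = 0.0357). In EpiLCs all 10 were above 0, with a median of 0.18, 0 called by edgeR and 0 at an unadjusted p under 0.05. Their number-wise medians were 0.83, 0.89 and -1.14, a spread far wider than the median. Among 13 measured regulators of nuclear respiratory genes and of mitochondrial DNA, 1 was called lower (3.55% of all genes) and 2 higher (3.37% of all genes) in ESCs. Tfam, which packages and transcribes mitochondrial DNA, rose in ESCs from 105 ± 0.773 to 123 ± 0.441 CPM (0.22, adjusted p = 0.0265), as did Gabpa, the DNA-binding subunit of GABP (0.17, adjusted p = 0.0498). Polrmt, the mitochondrial RNA polymerase, fell (-0.21, adjusted p = 0.0368). Of the 8 genes called among assembly factors, the mitochondrial genome and regulators, 0 were called by edgeR with any 1 library left out, 0 with the GC and length offsets and 4 by DESeq2. With both libraries numbered 1 left out, 5 were called, in a fit that called 828 of all genes lower and 929 higher. With the offsets, the log2 fold changes were 0.025 for mt-Nd6, -0.045 for Polrmt, 0.065 for Ndufaf4 and 0.083 for Gabpa. Those of Tmem126b, Tfam, Cmc1 and Ndufaf3 were 0.14, 0.16, 0.27 and -0.25. Over all genes, each fit with 1 library left out called 0 lower and 0 or 1 higher. The fit with offsets called 0 lower and 4 higher. Nrf1 had 74.5 ± 2.30 and 69.0 ± 1.90 CPM in ESCs (-0.11, adjusted p = 0.114) and 77.2 ± 0.902 and 76.8 ± 1.35 in EpiLCs (-0.0073, adjusted p = 0.961).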

How the data were processed

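The data are 12 RNA libraries in 4 groups of 3, ESCs or EpiLCs with vehicle or Δ9-THC, and the PGCLC libraries were not analysed here. The authors converted the reads with bcl2fastq 2.19.1.403, aligned them with STAR, counted unique alignments over genes with HTSeq (union mode, strand ignored), removed genes with low counts and adjusted the counts with ComBat-seq, whose batches are not given in the sources used here. Libraries were made with either of 2 kits, not named per library. The deposited counts are whole numbers, with ESCs and EpiLCs in tables of their own, and 0 columns were left without a sample. The methods name the genome as mm10 and as GRCm39. Names, positions, lengths and GC content came from GENCODE release 21 (GRCm38), and promoters from RefSeq (GRCm38.p6).

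Genes whose counts summed to over 10 were fitted with edgeR 4.0.16 (TMM, quasi-likelihood test) in R 4.3.3 within each cell type, and the interaction in a fit of 12 libraries. The SE was derived from the fold change and its F statistic. Ratios between libraries of the same number used CPM plus 0.5. Alternatives were RLE normalization, other filters, the replicate number as a term, GC and length offsets (splines with 5 degrees of freedom), DESeq2 1.42.0, 1 fit over the 12 libraries of both cell types, leaving out single libraries, and other sets of members. Leaving out both libraries of a number, and adding Usmg5 and Atpif1 as members, were chosen after seeing the data. The fits were tested on simulated data with independent libraries and with changes larger than those of the members. That test therefore does not cover libraries that deviate in opposite directions, as those here do. Python 3.11.15, pandas 2.3.3 and Matplotlib 3.10.9 made the tables and figures.

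The members, the related lists and the tests were chosen with earlier results of these data known. Named members were those called, the largest increase and decrease of each complex in each cell type, the core subunits, the isoforms, and the 5 highest and 5 lowest between vehicle EpiLCs and vehicle ESCs. 1 member that the rule names is not reported here. Others are said to be chosen after their values were seen.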

Additional observations from a re-analysis of the deposited data

Results flagged for a closer look

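Ndufc2, an accessory subunit of the membrane arm of complex I, had opposite differences in the cell types. In ESCs it was higher in every Δ9-THC library than in every vehicle library, with 67.4, 70.1 and 68.3 CPM against 66.5, 64.2 and 66.2. In EpiLCs it was lower in every Δ9-THC library, with 70.5, 62.7 and 69.4 CPM against 78.6, 88.2 and 80.4. The difference between the log2 fold changes was -0.34 (edgeR interaction, SE 0.085, adjusted p = 0.125), so the test of the difference did not pass the threshold, although DESeq2 called it. The ESC value was small, at 0.066, and was -0.0030 with offsets for GC content and transcript length.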

How the results depend on the processing

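The 2 calls of members in ESCs were lost when any 1 of the 6 libraries was left out, as were those of all 465 genes called lower. With both libraries numbered 1 left out, however, 828 genes were called lower, 12 members among them. Across settings chosen at the start, 427 counts, medians and sums moved by no more than 1.5 times (counts) or 1 SD between replicates (the others; for medians, between the 3 ratios of same-numbered libraries), a range that lets a median near 0 turn sign, and 14 moved further. Under the settings added after the data were seen, these numbers were 53 and 5. In EpiLCs the medians of those 3 ratios were -0.37, 0.26 and -0.28, a spread wider than the median log2 fold change of -0.16. A median there could thus move past 0 without being counted as moved. The changes with the offsets given above, in the EpiLC and interaction medians and in that of complex IV, were all counted as unmoved. For single named members, 1111 values had the same sign and the same side of the threshold, whatever their size, 73 had the opposite sign, 20 lost and 6 gained a call. The causes were not tested.

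In ESCs, 0 members were called lower with the replicate number as a block, with the GC and length offsets and with both together. The same held with each library left out and in the fit of all 12 libraries. Over all 13104 genes, 0 were called lower in these fits too, except in the fit of all 12 libraries, with 22 of 12410. Without both libraries numbered 1, 12 members were called lower (6.32% of all genes). Without both numbered 2 or both numbered 3, 0 were called (0 of all genes too). Without both numbered 3, 23 members were below 0. In EpiLCs, 6 members were called lower in the fit of all 12 libraries (1.28% of all genes). Without both libraries numbered 1, 51 members were below 0. For the difference between cell types, DESeq2 called 2 members lower (0.322% of all genes). The median of complex II was -0.043 with the offsets, alone or with the block. The replicate block changed no other count of calls. Same-numbered vehicle and Δ9-THC libraries deviated in opposite directions (correlations of -0.99 to -0.98), so the numbers were not taken to pair them.

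Signs turned in ESCs with the offsets, and with the offsets and the block, for Ndufs8 (0.066 and 0.065), Ndufv2 (-0.055 and -0.055), Sdhb (0.011 and 0.011), Uqcrc1 (0.0087 and 0.0087), Uqcrc2 (-0.025 and -0.025), Uqcrfs1 (-0.0098 and -0.0098), Cox4i1 (0.067 and 0.066), Cox7a2l (-0.018 and -0.018), Atp5c1 (-0.021 and -0.021), Atp5d (0.047 and 0.047), Atp5s (-0.046 and -0.046), Ndufc2 (-0.0030 and -0.0030) and Cox7c (-0.067 and -0.068). In the fit of all 12 libraries they turned for Ndufs3 (-0.0028) and Cox7a2l (-0.0088). In EpiLCs they turned with the offsets, and with the offsets and the block, for Ndufs7 (0.050 and 0.050), Sdhd (0.033 and 0.033), Cox7a1 (0.057 and 0.057), Cox7a2l (0.042 and 0.042) and Atp5e (0.018 and 0.024).

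With each library left out in turn, the log2 fold changes that turned sign ranged in ESCs from -0.040 to 0.052 for Ndufs3, -0.072 to 0.029 for Ndufs8, -0.069 to 0.056 for Cox4i1, -0.078 to 0.056 for Cox7a1, -0.022 to 0.031 for Cox7a2l, -0.052 to 0.053 for Atp5g1 and -0.0036 to 0.12 for Cox7c. In EpiLCs they ranged from -0.12 to 0.17 for Ndufb1-ps, -0.19 to 0.032 for Ndufs7, -0.064 to 0.019 for Sdhd, -0.19 to 0.018 for Uqcrh, -0.022 to 0.39 for Cox6b2, -0.29 to 0.17 for Cox7a1, -0.096 to 0.030 for Cox7a2l, -0.32 to 0.042 for Atp5e and -0.14 to 0.24 for Atp5s. The count of members below 0 ranged from 33 to 56 in ESCs and from 67 to 82 in EpiLCs. The median of the members ranged from -0.062 to 0.041 in ESCs and from -0.26 to -0.10 in EpiLCs, that of complex I in ESCs from -0.12 to 0.017 and that of complex V in ESCs from -0.0086 to 0.10.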
